A study of Mus musculus with 30 samples.

Results

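Gene expression in untreated IDG-SW3 cells was compared between day 35 and day 3 of differentiation, after each library had been centred on its own median gene. Of the 30 libraries in the series, 6 enter the comparison: 3 from untreated cells at day 3 and 3 from untreated cells at day 35, chosen by their labels alone. IDG-SW3 is a single conditionally immortalised mouse cell line of the bone lineage, labelled as osteocytic cells, in which interferon-gamma and a low temperature keep the immortalising gene active. All libraries came from cells grown up on collagen-coated plastic with interferon-gamma at the permissive temperature, then moved to a warmer incubator without interferon-gamma and fed ascorbic acid and beta-glycerophosphate. Untreated cells received no compound and no vehicle. The remaining untreated libraries come from days 7, 14, 21 and 28 (n = 3 each) and share the model's estimate of spread. A second experiment in the series, 12 libraries, gave cells the vitamin D hormone 1,25(OH)2D3 (100 nM, 24 h) or its ethanol vehicle, and supplied vehicle cells at day 3 and day 35 (n = 3 each) as an independent set of libraries for the same interval. Day 35 is also the day farthest from interferon-gamma and the lower temperature, so that time since expansion and differentiation cannot be told apart in any of these libraries.

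Osteoblasts secrete and mineralise the collagen matrix of bone, and some of them become embedded in it as osteocytes. Secreting this matrix loads the endoplasmic reticulum, where procollagen is hydroxylated, folded and passed to the Golgi, and it draws heavily on glycine, proline and other amino acids. A maturing cell of this lineage also stops dividing, changes its shape from a spread, contractile cell to one with long processes, and takes up secreted regulators of Wnt and BMP signalling.

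The values are RPKM, reads scaled by gene length and by the number of mapped reads, and their scale differed between the days. The 4 symbols *Rn18s*, *Rnr1*, *Rnr2* and *LOC236598*, the first 3 of them ribosomal RNA, held 75.6% to 80.1% of the summed RPKM in the day 3 libraries and 81.3% to 88.4% in the day 35 libraries. The median RPKM of the genes tested was 2.87 to 3.16 at day 3 and 1.90, 1.56 and 1.10 in day 35 replicates 1, 2 and 3. At day 35, 5248 to 6776 symbols reached 1 RPKM, against 8630 to 8816 at day 3. Read totals are not in the files, and the smallest steps between low values correspond to roughly 15400000 to 22200000 reads per library. The labels number the libraries of a day as replicates and name no separate cultures, so the p-values measure the spread between these libraries. On the centred log2 scale replicates of a day correlated across genes at 0.956 to 0.985, and libraries of different days at 0.805 to 0.854.

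A change in centred values is a change relative to the median gene of the library. Of 25520 symbols, 9933 reached 1 RPKM in at least 3 of the 18 untreated libraries and were tested with limma on log2(RPKM + 0.5). As listed, the median gene changed by −0.69 on the log2 scale, with 559 genes called higher (5.63%) and 5117 lower (51.5%) at a Benjamini-Hochberg adjusted p below 0.05. After centring the median change was 0.14, and 5073 genes (51.1%) were called, 2934 of them higher (29.5%) and 2139 lower (21.5%). Centring on the upper quartile of each library instead gave 2283 higher and 2639 lower genes, so the balance between the directions depends on which gene is taken as the reference. Of the genes called after centring, 1310 were higher and 1100 lower by at least 1 log2 unit, and 221 and 233 by at least 2. The 3 libraries of one day lay wholly above the 3 of the other for 3269 genes higher at day 35 (32.9%) and 2437 lower (24.5%). Every group of genes below is to be read against the shares 29.5% higher and 21.5% lower, and a change is on the centred log2 scale, ± SE, with n = 3 and 3, unless it is said to be as listed.

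**Figure D1:**
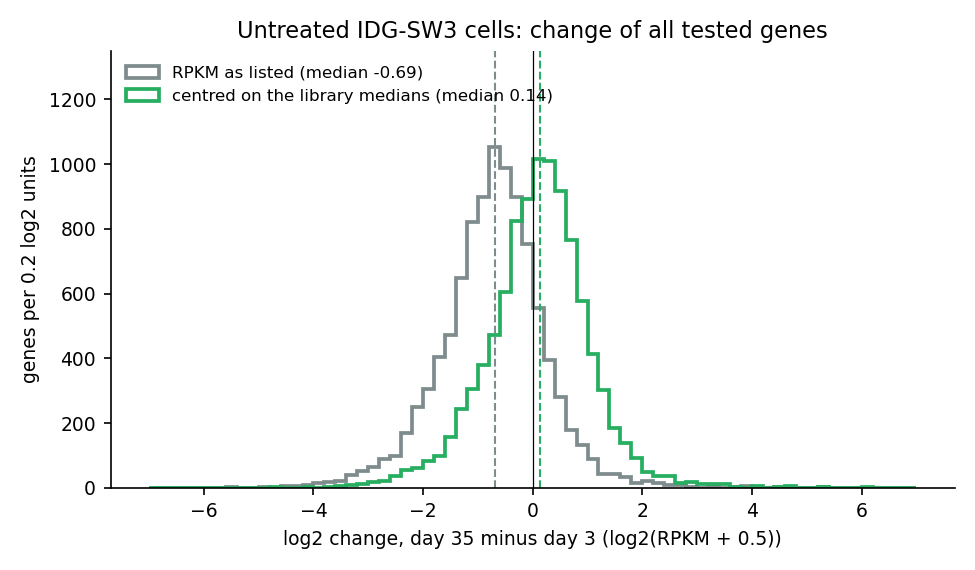
Distribution of the log2 change from day 3 to day 35 over the 9933 genes tested in untreated cells (x axis, log2 units; y axis, genes per bin), for RPKM as listed and after centring on the library medians, with dashed lines at the medians. The whole distribution moves from a median of −0.69 to one of 0.14 and keeps its shape, since centring adds the same 0.82 to the change of every gene.

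Genes of the bone matrix rose. Of the 23 osteoblast genes listed, 19 were tested, 17 rose and none fell, with a median change of 2.81. *Sparc*, which encodes the collagen-binding matrix protein osteonectin, stood at 135, 125.3 and 127 RPKM at day 3 and 744, 570.0 and 319 RPKM at day 35. The day 35 libraries all lay above the day 3 libraries, and the change was 2.81 ± 0.15 (adjusted p = 7.01e-10, limma). The bone sialoprotein gene *Ibsp* had 0.272, 0.479 and 0.697 RPKM at day 3 and 62.4, 46.2 and 27.3 RPKM at day 35, a change of 6.31 ± 0.34. Osteocalcin is a small calcium-binding protein of mineralised matrix, and its gene *Bglap* measured 2.61, 4.42 and 3.15 RPKM at day 3 and 186, 162 and 90.9 RPKM at day 35 (change 6.02 ± 0.33). Its near-identical neighbour *Bglap2*, whose reads may be shared with *Bglap*, changed by 4.79 ± 0.30. *Pth1r*, the receptor of parathyroid hormone, went from 0.978, 0.797 and 0.953 RPKM at day 3 to 12.6, 10.3 and 6.76 RPKM at day 35, a change of 3.67 ± 0.18. *Col1a1*, the main collagen of bone, rose by 2.01 ± 0.27, and *Spp1* (osteopontin) by 1.54 ± 0.23, the second of which did not pass as listed (0.72, adjusted p = 0.0591). *Runx2*, the transcription factor that founds the lineage, lay under the filter with 0.441, 0.450 and 0.447 RPKM at day 3 and 0.459, 0.315 and 0.116 RPKM at day 35.

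Osteocyte genes differed widely in level. Of 20 listed, 10 passed the filter, and 5 of these rose and 1 fell. The gap junction gene *Gja1*, whose product joins osteocyte processes, was already abundant at 165, 206 and 211 RPKM at day 3 and 361, 359 and 262 RPKM at day 35 (change 1.57 ± 0.13). *Dkk1*, a secreted Wnt inhibitor, was listed at 0 in every day 3 library and at 3.94, 2.76 and 1.91 RPKM at day 35. *Tnfrsf11b*, the decoy receptor for RANKL, rose by 1.84 ± 0.21, while *Tnfsf11*, RANKL itself, changed by −0.21 ± 0.22 (adjusted p = 0.455) with overlapping libraries. As listed *Tnfsf11* was lower (−1.03, adjusted p = 0.00637). The defining late markers were barely detected in the 6 untreated libraries. Genes under the filter were not looked up in vehicle cells, so their low levels are shown for untreated cells only. *Dmp1* had 0.117, 0.056 and 0.090 RPKM at day 3 and 0.314, 0.556 and 0.152 RPKM at day 35. *Sost*, which encodes sclerostin, was listed at 0 in the day 3 libraries and at 0.522, 0.496 and 0.072 RPKM at day 35. *Phex* reached at most 0.211 RPKM and *Mepe* 0.238 RPKM in any of the 6 libraries, and *Fgf23* was listed at 0 in all of them. Among 18 tested genes of mineralization and phosphate handling 8 rose and 3 fell, led by the sphingomyelinase gene *Smpd3* (3.21 ± 0.22), the glycosyltransferase gene *Galnt3* (2.87 ± 0.21) and the carbonic anhydrase gene *Car3* (3.10 ± 0.25).

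Other matrix genes moved in both directions. Of 18 small proteoglycan and related genes tested 9 rose and 3 fell (median 0.62). Lumican, which spaces collagen fibrils, has the gene *Lum*, at 289, 309 and 334 RPKM at day 3 and 1844, 1343 and 974 RPKM at day 35. The day 35 libraries all lay above the day 3 libraries and *Lum* rose by 2.93 ± 0.12, and osteomodulin (*Omd*, 2.22 ± 0.15) and decorin (*Dcn*, 1.82 ± 0.16) rose with it. The large proteoglycan versican went the other way: *Vcan* had 63.6, 54.1 and 55.0 RPKM at day 3 and 5.79, 3.42 and 4.23 RPKM at day 35, a change of −2.75 ± 0.16. Basement membrane and network collagen genes fell in 10 of 15 tested and rose in 3, with *Col4a1* (−1.11 ± 0.14), *Col4a2* (−1.63 ± 0.20) and *Hspg2* (−1.14 ± 0.14), which encodes perlecan, lower. Fibrillar and associated collagens were divided, with 5 of 17 higher (29.4%, near the share of all genes) and 6 lower (35.3%). *Col5a2* rose by 1.28 ± 0.14 and the cartilage-type *Col11a2* by 5.67 ± 0.47, while *Col12a1*, a collagen of tendon and periosteum, fell by 1.97 ± 0.14.

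Enzymes that act on collagen did not move as one. Of 18 tested, 10 rose and 4 fell. Prolyl hydroxylases make the procollagen helix stable, and *P4ha2* rose (1.13, 0.845 and 0.888 RPKM at day 3 and 6.48, 4.10 and 2.96 RPKM at day 35, change 2.55 ± 0.19) while its relative *P4ha3* fell (9.60, 8.00 and 8.46 RPKM at day 3 and 0.408, 0.355 and 0.282 RPKM at day 35, change −2.61 ± 0.21). *Lepre1*, a prolyl 3-hydroxylase, rose by 1.58 ± 0.16. Lysyl oxidase cross-links collagen outside the cell, and *Lox* went from 29.4, 21.7 and 21.3 RPKM at day 3 to 1.69, 0.680 and 1.00 RPKM at day 35, a change of −3.13 ± 0.22. In vehicle cells *Lox* changed by −0.58 and was not called. Matrix proteases and their inhibitors were divided at 11 higher and 7 lower of 23. The serine protease-like *Prss35* (6.12 ± 0.21) and the secreted serpin gene *Serpinf1* (3.11 ± 0.15) rose, while *Adamts1*, a versican-cleaving protease, fell from 247, 285 and 283 RPKM at day 3 to 30.1, 21.9 and 18.4 RPKM at day 35 (change −2.71 ± 0.14). Elastic fibre and microfibril genes gave 5 higher and 5 lower of 16, with tenascin C (*Tnc*, 1.43 ± 0.13) up and thrombospondin 1 (*Thbs1*, 684, 508 and 493 RPKM at day 3 and 135, 96.7 and 117 RPKM at day 35, change −1.44 ± 0.19) down.

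**Figure D2:**
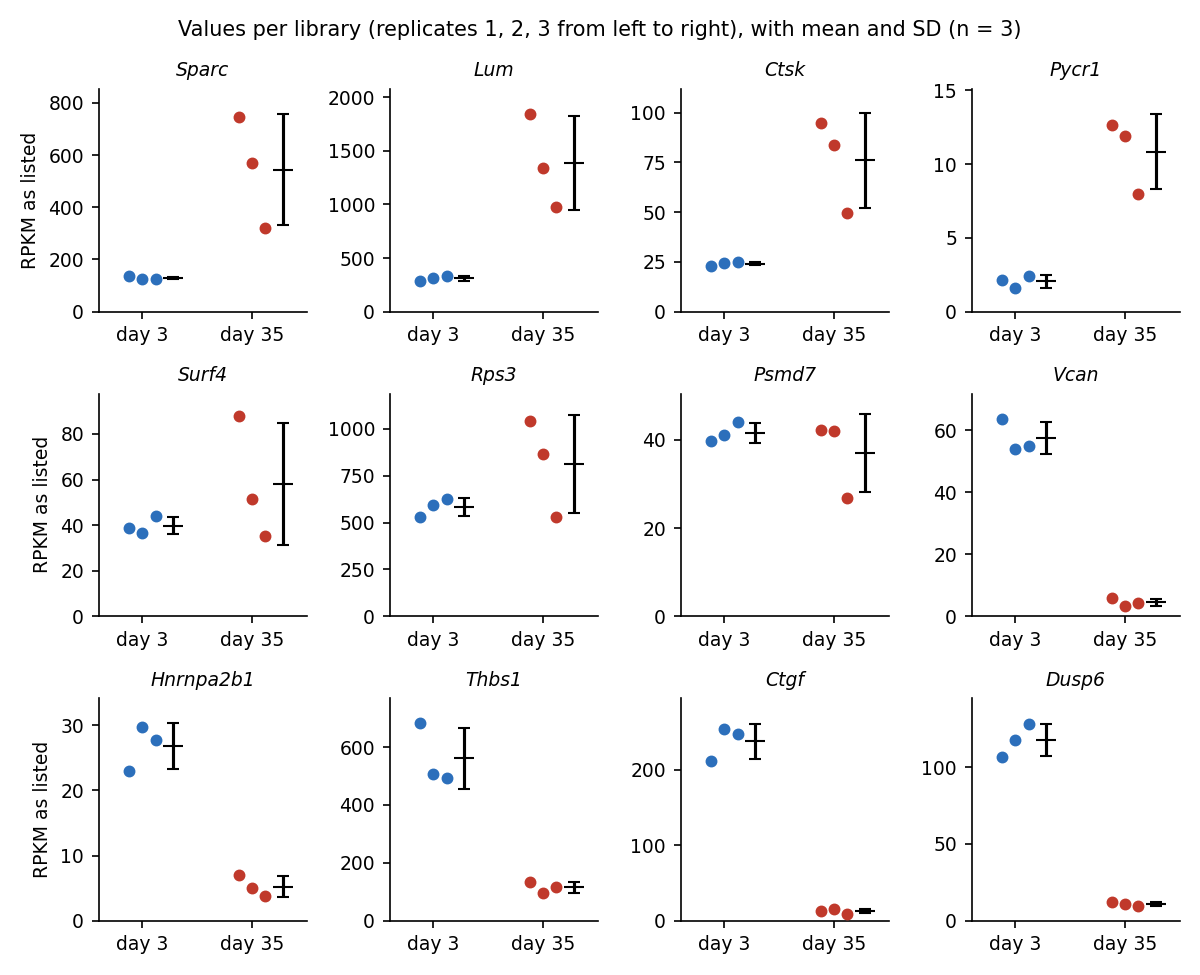
RPKM as listed (y axis, linear from 0) in each untreated library at day 3 (blue) and day 35 (red) for 12 genes, with mean and SD (n = 3). For *Surf4*, *Rps3* and *Psmd7* the days overlap as listed although the centred values do not; *Sparc* and *Lum* lie wholly higher at day 35, and *Vcan*, *Thbs1*, *Ctgf* and *Dusp6* wholly lower.

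The secretory machinery was read differently before and after centring. None of the 39 tested genes of endoplasmic reticulum translocation and vesicle transport was called higher as listed and 14 were called lower. After centring 16 were higher and 5 lower (median 0.49). *Surf4*, a cargo receptor that loads secreted proteins into transport vesicles, had 38.8, 36.5 and 44.0 RPKM at day 3 and 87.7, 51.5 and 35.1 RPKM at day 35. As listed day 35 replicate 3 lay below the day 3 libraries, but relative to the library medians the order was clean, with centred log2 levels of 3.54, 3.38 and 3.60 at day 3 and 5.20, 4.66 and 4.47 at day 35 (change 1.27 ± 0.17, adjusted p = 1.6e-05). *Tmed9*, a transport vesicle protein gene, rose by 0.89 ± 0.13, the signal peptidase subunit gene *Spcs1* by 0.88 ± 0.14, and the signal recognition particle receptor gene *Srpr* by 0.76 ± 0.12. As listed *Tmed9*, *Spcs1* and *Srpr* changed by 0.07, 0.06 and −0.06 and none was called. In vehicle cells *Surf4* (0.77) and *Tmed9* (0.62) were called higher, while *Spcs1* (0.09) and *Srpr* (0.14) were not called. Among N-glycosylation genes, whose products build and trim the sugar chains of secreted proteins, 8 of 30 rose and 2 fell, shares that do not exceed those of all genes. *Alg2* rose by 1.91 ± 0.18 and the Golgi mannosidase gene *Man2a1* fell by 1.58 ± 0.17.

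Chaperones and sensors of the endoplasmic reticulum rose in 12 of 25 genes tested and fell in none, where as listed 3 were higher and 5 lower. *Hspa5* encodes BiP, the main chaperone of this compartment, and had 121, 132 and 139 RPKM at day 3 and 243, 180.4 and 119.6 RPKM at day 35 (change 1.23 ± 0.11). Only after centring did its libraries separate by day. *Herpud1* and *Sil1*, which take part in degrading misfolded proteins and recycling BiP, rose by 2.07 ± 0.17 and 1.90 ± 0.19, and the co-chaperone gene *Dnajb9* by 1.92 ± 0.19. Lysosome and autophagy genes rose in 21 of 32 and fell in 1 (median 0.70), against 6 and 6 as listed. The collagen-cleaving cathepsin K gene *Ctsk* had 23.1, 24.6 and 24.7 RPKM at day 3 and 94.8, 83.9 and 49.3 RPKM at day 35 (change 2.40 ± 0.12). *Ctsa* (1.70 ± 0.18), the cholesterol carrier gene *Npc2* (1.31 ± 0.15) and the autophagy receptor gene *Sqstm1* (1.33 ± 0.14) rose beside it.

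Amino acid supply and the genes driven by the stress transcription factor ATF4 rose in most members tested. Of 28 tested 23 rose and 2 fell, with a median change of 1.55. *Nupr1*, a small stress-induced nuclear protein, had 15.1, 13.6 and 18.5 RPKM at day 3 and 457, 428 and 219.5 RPKM at day 35 (change 5.27 ± 0.22). *Pycr1*, the last enzyme of proline synthesis, had 2.14, 1.60 and 2.44 RPKM at day 3 and 12.7, 11.9 and 7.95 RPKM at day 35 (change 2.96 ± 0.18). The serine-synthesis enzyme gene *Psph* rose by 2.58 ± 0.26, the transcription factor gene *Atf5* by 3.79 ± 0.35, and *Trib3*, an inhibitor within the same stress pathway, by 5.30 ± 0.62. Cytosolic tRNA synthetases charge tRNAs with amino acids, and several are known ATF4 targets. They rose in 7 of 20 (35%, near the 29.5% of all genes) and fell in 1 (5%). As listed 4 were higher and 7 lower. *Sars* (1.85 ± 0.19), *Wars* (1.59 ± 0.17), *Tars* (1.44 ± 0.16) and *Iars* (1.39 ± 0.14), for serine, tryptophan, threonine and isoleucine, had the smallest p-values of that list.

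Because most genes of the ATF4 and amino acid supply list moved together, their promoters were searched for the response element that ATF4 is known to bind. The windows run from 250 bases before to 50 after each annotated start in RefSeq (GRCm38.p6), and the motif TGATGNAA was read on both strands. It was found in 6 of the 25 promoters of called, higher members (24%, 6 of 21 genes with a promoter), and in 1304 of all 32851 promoters (3.97%). The *Nupr1* promoter, on the minus strand at chr7:126625421-126625720, is shown as the member with the smallest p that holds the motif, in capitals.
Nupr1: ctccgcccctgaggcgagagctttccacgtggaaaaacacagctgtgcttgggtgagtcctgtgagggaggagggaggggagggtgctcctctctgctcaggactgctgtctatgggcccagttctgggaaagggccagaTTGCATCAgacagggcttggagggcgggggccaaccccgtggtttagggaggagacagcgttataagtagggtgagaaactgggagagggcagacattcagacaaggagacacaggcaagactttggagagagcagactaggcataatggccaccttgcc
Such a match is a description of the letters, and with the motif read on the given strand alone the share was 8%. The share of all promoters on the given strand alone was not computed. TGACGTG, the core of the unfolded protein response element, was found in 1 of 8 promoters of the called chaperone genes (12.5%, against 2.01% of all), that of *Hspa5*. These promoters cover 8 of the 12 called members. The osteoblast genes held the RUNX motif AACCACA in 1 of 17 promoters (5.88%), near the 5.27% of all promoters, in that of *Spp1*. These promoters belong to 11 of the 17 called osteoblast genes.

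**Figure D3:**
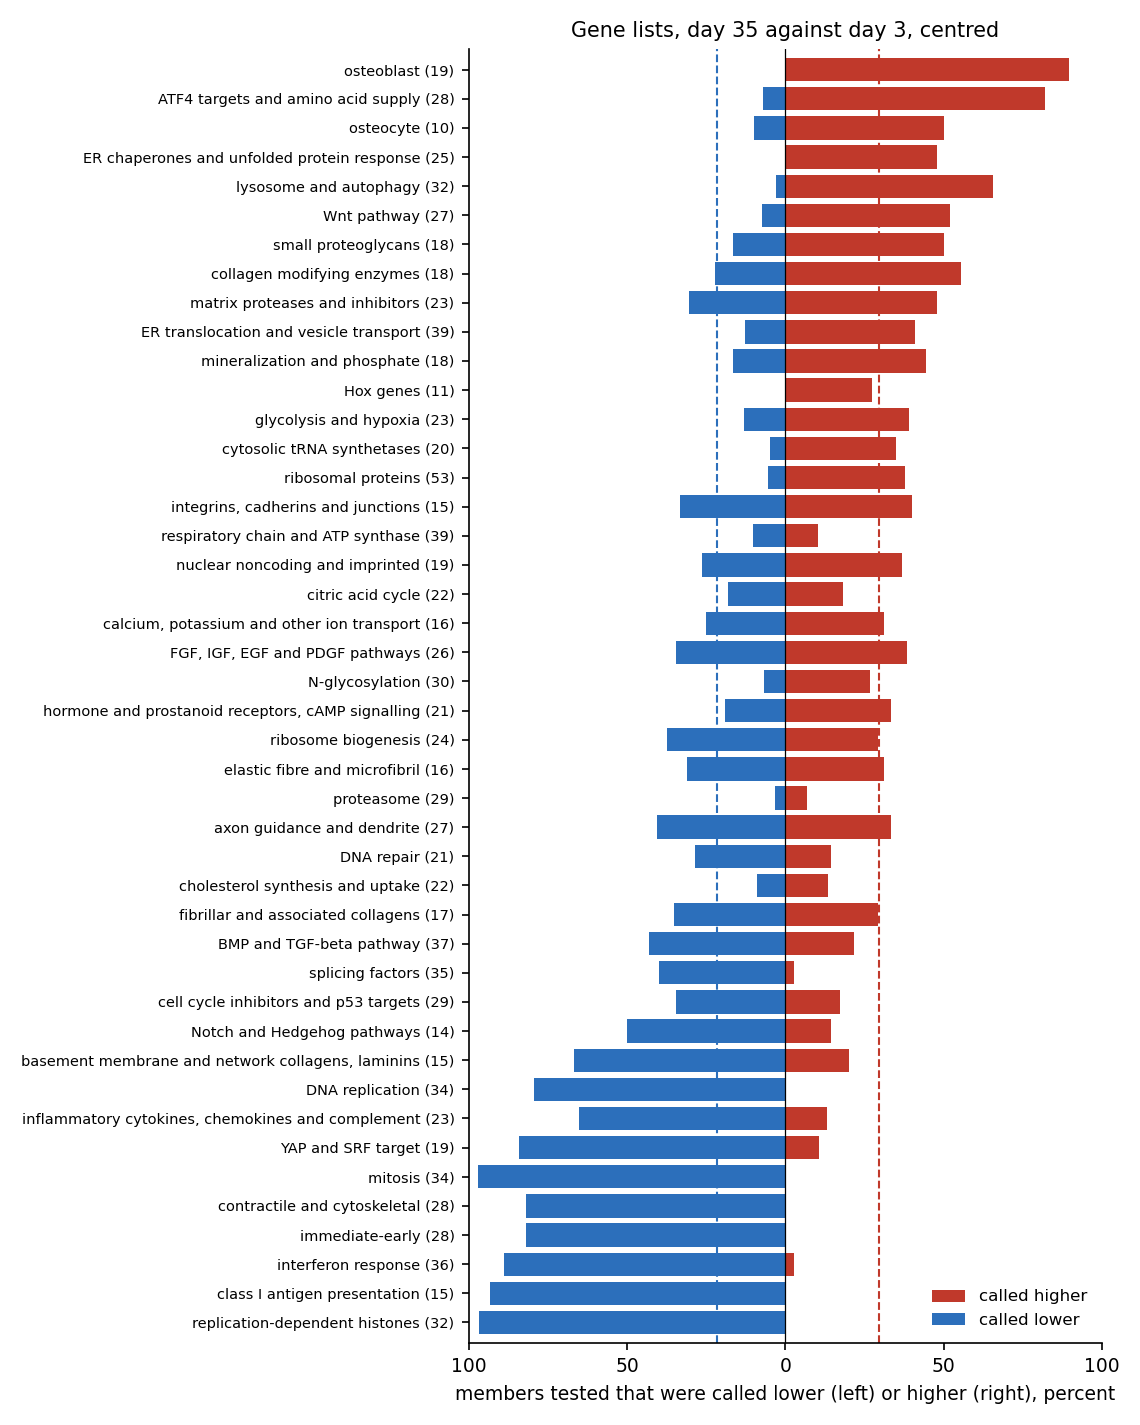
Share of the tested members of each gene list that were called higher (red, right) or lower (blue, left) at day 35, in percent, for lists with at least 10 tested members, ordered by median change; the number tested is in brackets. Dashed lines give the shares over all genes, 29.5% and 21.5%.

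Housekeeping groups differed from each other. Ribosomal protein genes, several of which have many processed copies that make their counts uncertain, rose in 20 of 53 and fell in 3 (median 0.35), with 2 higher and 21 lower as listed. *Rps3* had 529, 595 and 625 RPKM at day 3 and 1042, 867 and 527 RPKM at day 35 (change 1.25 ± 0.12). Few proteasome subunits were called, 2 of 29 higher and 1 lower (median −0.01), where 20 were lower as listed. *Psmd7* was 39.7, 41.0 and 44.1 RPKM at day 3 and 42.2, 42.0 and 26.9 RPKM at day 35 (change 0.63 ± 0.10), and *Psmd14* fell by 1.81 ± 0.26. In vehicle cells neither *Psmd7* (0.18) nor *Psmd14* (−0.23) was called. Respiratory chain and ATP synthase genes gave 4 higher and 4 lower of 39, and citric acid cycle genes 4 and 4 of 22, all below the background shares. Splicing factors fell in 14 of 35 and rose in 1 (median −0.40). *Hnrnpa2b1*, an RNA-binding protein of splicing and transport, had 22.9, 29.7 and 27.8 RPKM at day 3 and 6.94, 5.07 and 3.71 RPKM at day 35 (change −1.46 ± 0.15), and *Srsf4* (−1.65 ± 0.14), *Tra2b* (−1.52 ± 0.18) and *U2af2* (−1.23 ± 0.15) were lower too. In vehicle cells 16 of 31 splicing genes were lower and none higher. Of all 9372 genes tested in both experiments, 2168 were lower and 1918 higher there. Among the splicing genes named here only *Tra2b* (−0.13) was not called in vehicle cells.

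Metabolic genes gave a mixed picture. Glycolysis and hypoxia genes rose in 9 of 23 and fell in 3, with the phosphofructokinase gene *Pfkl* (2.52 ± 0.17) and the aldolase gene *Aldoc* (3.02 ± 0.29) higher. *Hif1a*, the oxygen-regulated transcription factor gene, fell by 1.37 ± 0.15 and its target *Adm*, which encodes the peptide adrenomedullin, fell by 2.45 ± 0.17. Among 22 genes of cholesterol synthesis and uptake 18 were lower as listed, but only 2 were lower and 3 higher after centring. In vehicle cells 15 of 21 of these genes were lower and 1 higher, where 2168 of all 9372 genes tested in both experiments were lower. *Idh1*, the cytosolic isocitrate dehydrogenase, rose by 1.29 ± 0.14, while *Dlst*, a subunit of the oxoglutarate dehydrogenase complex, fell by 1.71 ± 0.28.

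Most genes of cell division fell, also relative to the median gene. DNA replication genes fell in 27 of 34, mitosis genes in 33 of 34 and replication-dependent histones in 31 of 32, and none rose. *Mcm5*, a subunit of the replicative helicase, had 17.0, 19.0 and 20.1 RPKM at day 3 and 3.70, 2.46 and 1.71 RPKM at day 35 (change −1.85 ± 0.13). *Top2a*, the topoisomerase that untangles chromosomes, had 13.1, 11.7 and 12.9 RPKM at day 3 and 1.55, 0.791 and 0.701 RPKM at day 35 (change −2.33 ± 0.14). The summed RPKM of the mitosis list was 191 to 196 in the day 3 libraries and 15.6 to 28.3 in the day 35 libraries. In bulk cultures, fewer dividing cells and less of these transcripts per cell cannot be told apart. Cell cycle inhibitors and p53 targets were divided at 5 higher and 10 lower of 29, with *Tob1* (1.56 ± 0.15), which restrains proliferation, higher and the inhibitor genes *Cdkn2c* (−2.33 ± 0.13) and *Btg2* (−1.90 ± 0.13) lower. DNA repair genes gave 3 higher and 6 lower of 21.

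The mitosis promoters were searched for TTTGAA, the core of the cell cycle homology region through which many of these genes are repressed in resting cells, and for CCAAT, both on either strand. TTTGAA was in 20 of the 29 promoters of called members (69%) and in 17.9% of all promoters, and CCAAT in 19 (65.5%) against 37.4%. The *Top2a* promoter, on the minus strand at chr11:99024140-99024439, holds 2 copies of TTTGAA, shown in capitals.
Top2a: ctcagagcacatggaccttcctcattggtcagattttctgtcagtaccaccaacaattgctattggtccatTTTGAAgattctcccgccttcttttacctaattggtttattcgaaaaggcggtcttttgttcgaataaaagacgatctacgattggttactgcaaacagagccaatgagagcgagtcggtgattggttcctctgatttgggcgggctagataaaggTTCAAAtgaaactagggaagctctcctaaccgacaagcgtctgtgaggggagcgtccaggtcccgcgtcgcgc
The E2F motif TTTNGCGC was in 7 of 25 promoters of the called replication genes (28%) and in 1.38% of all.

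Interferon-regulated genes fell in most members tested. Of 36 interferon response genes tested 32 fell and 1 rose, of 15 class I antigen presentation genes 14 fell, and the 4 class II genes tested all fell. *Gbp2*, an interferon-inducible GTPase, had 9.53, 9.45 and 9.76 RPKM at day 3 and 0.429, 0.416 and 0.467 RPKM at day 35 (change −2.60 ± 0.18), and its libraries barely varied within a day. The abundant class I gene *H2-D1* had 1217, 1383 and 1576 RPKM at day 3 and 338, 279.7 and 209.9 RPKM at day 35 (change −1.53 ± 0.11). Its class II counterpart *H2-Aa* had 89.0, 100.4 and 99.9 RPKM at day 3 and 1.11, 1.57 and 1.19 RPKM at day 35, a change of −4.94 ± 0.21. The 1 riser was *Isg20*, an exonuclease gene named here after its value was seen, with 3.11, 2.57 and 2.74 RPKM at day 3 and 5.17, 2.98 and 2.23 RPKM at day 35 (1.02 ± 0.22). The interferon-stimulated response element, read as GAAA, any 2 bases and GAAA on either strand, was in 13 of 24 promoters of the called, lower members (54.2%) and in 3.44% of all promoters. These 24 promoters belong to 21 of the 32 genes called lower and do not include that of *Gbp4*. The remaining called genes had no matched promoter. On the given strand alone the element was in 25%, with no such share computed over all promoters. TTCNNNGAA, the gamma-activated site, was in 4 of the 24 (16.7%) against 8.3%. The *Gbp2* promoter, on the plus strand at chr3:142620413-142620712, carries the response element in capitals.
Gbp2: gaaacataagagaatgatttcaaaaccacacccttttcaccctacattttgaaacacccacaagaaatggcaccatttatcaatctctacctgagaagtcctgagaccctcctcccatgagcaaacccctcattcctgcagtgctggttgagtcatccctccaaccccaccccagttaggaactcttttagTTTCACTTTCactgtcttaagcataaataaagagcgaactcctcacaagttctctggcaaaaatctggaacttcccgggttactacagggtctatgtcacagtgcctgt
Inflammatory, chemokine and complement genes fell in 15 of 23 and rose in 3. The prostaglandin synthase gene *Ptgs2* (−4.61 ± 0.18) and the IL-33 receptor gene *Il1rl1* (−4.16 ± 0.30) fell, whereas *Il33* itself rose by 2.48 ± 0.18.

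Immediate-early genes, which growth factors and handling induce within minutes, fell in 23 of 28 and rose in none. *Dusp6*, a phosphatase that damps ERK signalling, had 107, 118 and 128 RPKM at day 3 and 12.2, 10.9 and 9.57 RPKM at day 35 (change −2.55 ± 0.12), and the related *Dusp1* fell by 3.86 ± 0.17. *Nr4a1* (−2.97 ± 0.17) and *Klf6* (−2.20 ± 0.18), both transcription factor genes, fell as well. A core of the serum response element, read as CC, any base, TATA, any base and GG, which is the same on both strands, was in 5 of 21 promoters of the called members, which belong to 3 of 17 genes (*Dusp5*, *Egr2* and *Srf*), or 23.8% against 0.289% of all promoters. *Dusp5* had 2.98, 2.98 and 2.79 RPKM at day 3 and 0.041, 0 and 0 RPKM at day 35, and its promoter on the plus strand at chr19:53528895-53529194 is shown with the core in capitals.
Dusp5: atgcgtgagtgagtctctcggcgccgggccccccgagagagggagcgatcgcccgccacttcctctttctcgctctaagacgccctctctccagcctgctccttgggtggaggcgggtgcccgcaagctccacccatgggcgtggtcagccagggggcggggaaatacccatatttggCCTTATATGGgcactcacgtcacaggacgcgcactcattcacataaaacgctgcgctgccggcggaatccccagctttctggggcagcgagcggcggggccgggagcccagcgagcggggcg

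Contractile and cytoskeletal genes, many of which the same serum response factor controls, fell in 23 of 28 and rose in none (median −1.33). Vinculin and zyxin sit in the adhesions by which a spread cell pulls on its plate, and *Vcl* (−2.16 ± 0.14) and *Zyx* (−2.44 ± 0.17) fell together with smooth muscle actin (*Acta2*, −2.40 ± 0.19). *Actb*, often used as a reference gene, had 2709, 2243 and 2404 RPKM at day 3 and 1254, 664 and 497 RPKM at day 35 and fell by 0.89 ± 0.25. Targets of YAP and serum response factor, which respond to tension and spreading, fell in 16 of 19 and rose in 2. *Ctgf*, a secreted matricellular protein gene, had 211, 254 and 248 RPKM at day 3 and 13.5, 15.1 and 9.25 RPKM at day 35 (change −3.39 ± 0.18), and *Ankrd1* (−3.53 ± 0.21) and the coagulation initiator gene *F3* (−3.33 ± 0.18) followed. Integrin, cadherin and junction genes were divided at 6 higher and 5 lower of 15. Among connexins and pannexins *Gja1* and *Panx3* (6.05 ± 0.37) rose and *Gjc1* fell by 1.71 ± 0.13.

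**Figure D4:**
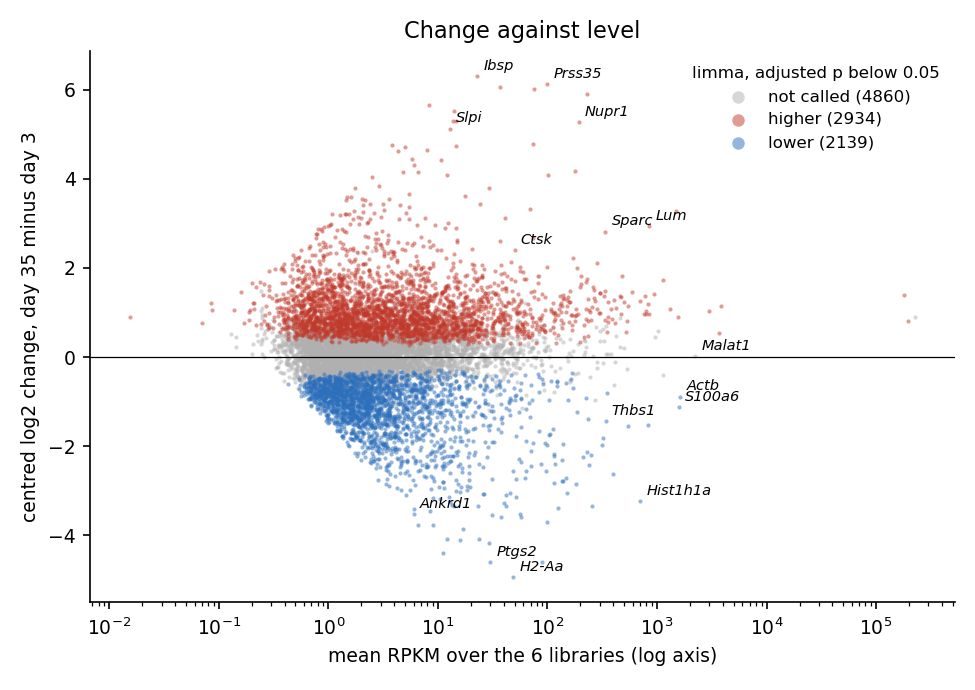
Centred log2 change from day 3 to day 35 (y axis) against the mean RPKM over the 6 libraries (x axis, log scale) for 9933 genes, coloured by call. Selected genes are marked, not all of which are named in the text. Called genes in both directions span the range of levels, and few genes of the lowest levels are called lower.

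Signalling pathways moved in both directions. Of 27 tested genes of the Wnt pathway, 14 rose and 2 fell (median 0.62). The receptor gene *Fzd5* had 2.26, 1.81 and 2.33 RPKM at day 3 and 8.34, 6.40 and 4.02 RPKM at day 35 (change 2.13 ± 0.13). *Wif1*, a secreted Wnt inhibitor, was listed at 0 in the day 3 libraries and at 2.17, 1.43 and 1.25 RPKM at day 35, and *Wisp2*, a matricellular target of the pathway, fell by 2.21 ± 0.17. BMP and TGF-beta genes fell in 16 of 37 and rose in 8. *Inhba*, which encodes the activin A subunit, had 97.9, 127 and 121 RPKM at day 3 and 9.60, 10.3 and 8.46 RPKM at day 35 (change −2.71 ± 0.17), and the TGF-beta target *Tgfbi* fell by 2.30 ± 0.19. The BMP antagonist-like *Bmp3* was listed at 0 at day 3 and at 4.66, 3.21 and 2.64 RPKM at day 35, and *Gdf10* changed by 2.28 ± 0.17. Notch and Hedgehog genes fell in 7 of 14 and rose in 2. The Hedgehog receptor and target gene *Ptch1* rose by 1.98 ± 0.20, while the repressor gene *Gli3* (−1.90 ± 0.20) and the Notch effector gene *Rbpj* (−1.86 ± 0.18) fell.

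Growth factor genes were divided at 10 higher and 9 lower of 26. *Spry1*, a feedback inhibitor of FGF signalling, had 5.72, 6.89 and 6.64 RPKM at day 3 and 27.5, 27.0 and 15.8 RPKM at day 35 (change 2.57 ± 0.13), and the IGF-binding protein gene *Igfbp5* rose by 2.27 ± 0.17. *Igf1r*, the IGF1 receptor gene, and the ligand gene *Nrg1* fell by 1.41 ± 0.15 and 2.50 ± 0.21. Hormone receptor and cAMP genes gave 7 higher and 4 lower of 21 (33.3% and 19%), near the shares of all genes. *Dio2*, which activates thyroid hormone, was among the higher genes (4.64 ± 0.32). Of 16 ion transport genes 5 rose and 4 fell (31.2% and 25%), also near the shares of all genes. The potassium channel gene *Kcnk1* was at 0.131, 0 and 0 RPKM at day 3 and 2.68, 3.74 and 3.13 RPKM at day 35. *Trpv4*, a calcium channel opened by stretch and swelling, was higher by 2.08 ± 0.21. Axon guidance and dendrite genes, a group of interest for cells that grow processes, rose in 9 of 27 and fell in 11. *Sema3b* had 0.5, 0.623 and 0.564 RPKM at day 3 and 8.53, 6.32 and 5.10 RPKM at day 35 (change 3.55 ± 0.15), while *Sema3e* (−2.15 ± 0.19), *Unc5c* (−1.59 ± 0.17) and the neurotrophin gene *Bdnf* (−2.49 ± 0.14) fell. Of 11 Hox genes tested 3 rose (27.3%), a share that does not exceed the 29.5% of all genes, and none fell. The risers were *Hoxd8* (1.58 ± 0.19), *Hoxa11* (1.35 ± 0.20) and *Hoxa10* (0.70 ± 0.17). The paraspeckle RNA gene *Neat1* fell by 1.93 ± 0.27 and the abundant nuclear RNA gene *Malat1* changed by 0.03 ± 0.23 with overlapping libraries, a value whose sign depends on the scaling and the libraries used.

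Markers of other cell types were mostly at or near 0. No endothelial and no blood cell marker passed the filter (0 of 12 each), and *Cdh5*, *Vwf*, *Hbb-b1* and *Cd3e* were listed at 0 in all 6 libraries. Macrophage and osteoclast markers summed to 35.5 to 35.8 RPKM at day 3 and 51.2 to 97.5 RPKM at day 35, but without *Ctsk*, which osteocytes are also known to express, they summed to 10.9 to 12.7 and 1.57 to 2.73 RPKM. *Lyz2*, *Itgam* and *Tyrobp* were listed at 0 in all 6. Of 17 chondrocyte markers in the files 6 were tested, 4 of which rose and 2 fell, and the list summed to 11.2 to 18.2 RPKM at day 3 and 25.7 to 43.4 RPKM at day 35. *Col2a1* (0.109, 0.133 and 0.107 RPKM at day 3 and 3.69, 6.21 and 1.94 RPKM at day 35), *Matn4* (3.18 ± 0.20) and *Comp* (2.55 ± 0.28) were among the 4 higher genes. The 2 lower genes are not named here, and *Col9a1* and *Matn1* were at 0. Of 3 adipocyte markers tested 2 rose, *Plin2* (1.03 ± 0.26) and *Cebpa* (0.91 ± 0.37), and *Pparg*, the regulator of fat cell formation, fell by 2.14 ± 0.24. The list summed to 15.2 to 20.4 RPKM at day 3 and 13.9 to 17.1 RPKM at day 35, with *Lep* and *Retn* at 0. The *Cebpa* call was lost when day 3 replicate 1 (0.60), day 35 replicate 2 (0.79) or day 35 replicate 3 (0.75) was left out. Of 3 tendon and skeletal muscle markers tested *Scx* rose (0.98 ± 0.35) and *Egr1* fell by 0.91 ± 0.20, and the list summed to 14.3 to 16.5 RPKM and 8.84 to 18.1 RPKM, with *Myod1* and *Myog* at 0. The *Scx* call was lost without day 3 replicate 1 (0.86), day 3 replicate 3 (1.03) or day 35 replicate 2 (0.71). The 1 neuronal and glial marker tested, *S100b*, rose by 1.71 ± 0.38, and the list summed to 3.39 to 4.13 RPKM and 3.27 to 12.6 RPKM, with *Snap25* and *Sox10* at 0. The only epithelial marker tested, *Krt19*, fell by 2.02 ± 0.16, and the list as a whole summed to 5.01 to 6.05 RPKM at day 3 and 0.261 to 0.392 RPKM at day 35. The part of such cells in the results above was not tested.

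Centring raised the change of every gene by the same 0.82 log2 units. Genes could therefore hardly become newly lower, and none did. It moved 2372 genes from uncalled as listed to higher. Several of the largest of these changes were in genes whose libraries varied. *Tpi1*, the glycolytic triosephosphate isomerase, had 6.36, 13.1 and 15.5 RPKM at day 3 and 15.9, 32.9 and 21.3 RPKM at day 35 (change 1.82 ± 0.53), and replicate 1 was the lowest of both days. *Stard5*, a lipid carrier gene, showed the same order with 1.24, 2.58 and 2.82 RPKM at day 3 and 3.03, 9.74 and 4.08 RPKM at day 35 (change 1.90 ± 0.50). Replicate 1 of both days shares a sequencing run, and with the run as a covariate the changes were 1.71 ± 0.17 for *Tpi1* and 1.60 ± 0.30 for *Stard5*. *Arpc5l*, a subunit gene of the actin-nucleating complex, had 1.43, 4.41 and 4.81 RPKM at day 3 and 6.57, 10.2 and 5.17 RPKM at day 35 (change 1.85 ± 0.59, and 2.42 ± 0.41 with the run as a covariate). The *Arpc5l* call was lost when day 3 replicate 1 was left out (1.42, adjusted p = 0.0778) and when day 35 replicate 2 was (1.62, adjusted p = 0.0573). *Phospho2*, a phosphatase gene, had a tighter change of 1.58 ± 0.25 (8.58, 8.77 and 7.37 RPKM at day 3 and 23.9, 13.8 and 8.73 RPKM at day 35). A further 2975 genes were lower as listed and not called after centring. Only *Secisbp2l*, *Arfrp1* and *Slc4a1ap* passed in opposite directions, lower as listed (−0.49, −0.53 and −0.55) and higher after centring (0.33 ± 0.13, 0.30 ± 0.12 and 0.28 ± 0.11), each with an adjusted p of 0.047 to 0.049 that several alternatives did not keep.

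Vehicle cells gave these classes a comparison in libraries made with another kit and analysed from counts with edgeR. In them 3101 of 20055 genes were higher (15.5%) and 2905 lower (14.5%) at day 35. Of the 9372 genes tested in both experiments, 1918 were higher and 2168 lower in vehicle cells, with a median change of −0.03. Of 518 genes higher both as listed and after centring, 511 (98.6%) were higher in vehicle cells too. For the genes higher only after centring this was 1841 of 2244 (82.0%, exact 95% interval 80.4% to 83.6%, which covers counting only and treats genes as independent), and 866 of them were called higher there and 22 lower. For the genes lower both ways it was 1797 of 2035 (88.3%). Of the genes lower only as listed, 1896 of 2820 (67.2%) were lower in vehicle cells, with 688 called lower and 236 called higher. Of the 3 genes lower as listed and higher after centring, 2 were tested in vehicle cells and neither was higher there: *Secisbp2l* fell, with a log2 change of −0.51 (edgeR, adjusted p = 0.0485), and *Slc4a1ap* had −0.05, which did not pass. Of the 2731 genes called in both experiments after centring, 2657 had the same direction and 74 opposite ones. In 66 of the 74 the libraries of the days did not overlap in either experiment. Among these were *Ism1* (−2.04 ± 0.32 untreated, 1.03 ± 0.18 in vehicle cells), *Cxcl14* (−1.90 ± 0.34 and 1.24 ± 0.20) and *Mterfd2* (1.32 ± 0.13 and −2.03 ± 0.30), 3 of the 6 largest such changes, named after their values were seen. The difference between the experiments was not tested for these genes, since the 2 sets differ in unit.

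**Figure D5:**
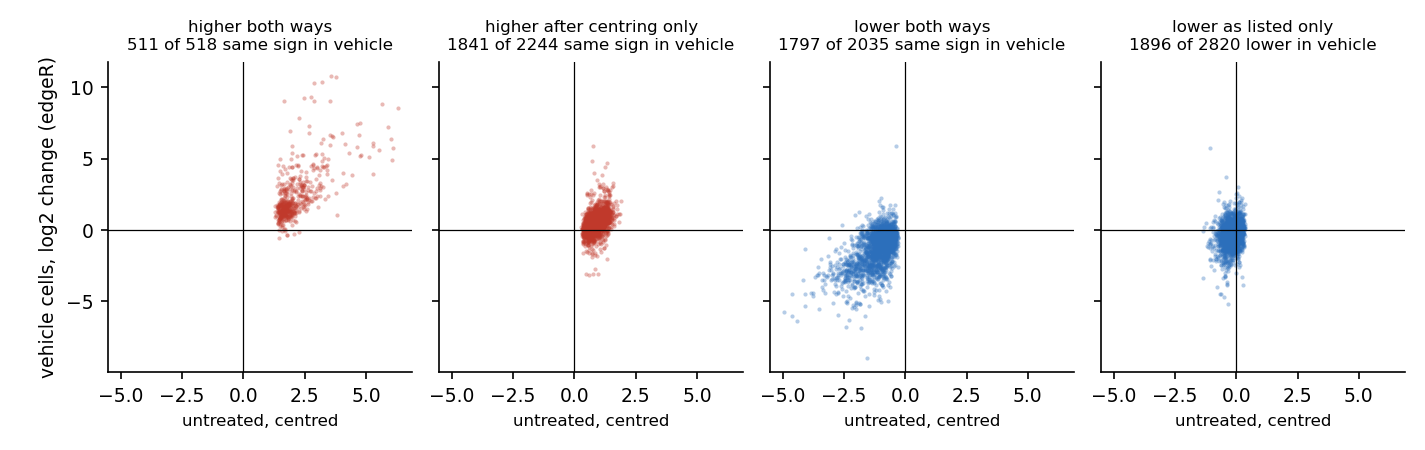
Log2 change from day 3 to day 35 in vehicle cells (y axis, edgeR on counts) against the centred change in untreated cells (x axis, limma on RPKM), 1 point per gene, by call class. The title of each panel counts the genes that moved the same way in vehicle cells, or, for the genes lower only as listed, that were lower there.

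Within the sequencing run that replicate 1 of both days shares, 2916 of the 2934 higher genes (99.4%) and 2135 of the 2139 lower genes (99.8%) had the same sign. These libraries are part of the fit that made the calls and leave 1 against 1, so this agreement was largely fixed in advance. The part of the run in the calls was not tested by it. Day 35 replicates 2 and 3 were alone in their run, so for them run and day cannot be told apart. Calls also differed with level and length. With the genes split into 4 equal groups by mean RPKM, 27.8%, 22.7%, 27.4% and 40.2% were called higher and 13.7%, 26.9%, 25.3% and 20.3% lower from the lowest to the highest group. The median change of these groups was 0.19, −0.06, 0.08 and 0.33, and in vehicle cells 0.02, −0.08, −0.06 and 0.01. By longest annotated transcript, known for 8342 genes, split in the same way, the median change was 0.34 for the shortest genes and −0.15 for the longest, and in vehicle cells 0.18 and −0.28. The part of length and RNA quality in the calls was not tested. At the lowest levels the pseudocount matters: a gene at 0 in all 6 libraries would receive a centred change of 0.82. Of 976 genes whose higher group mean was at most 1 RPKM, 444 were called higher and 2 lower, and 264 and 45 when the libraries were scaled to a common median before the pseudocount was added, an alternative chosen after seeing the data. It gave 3040 higher and 2498 lower genes in all, kept 2684 of the 2934 higher and 2050 of the 2139 lower calls, and reversed none.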

How the data were processed

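The deposited files of untreated cells list RPKM per gene row, a unit read from the values. Those of the second experiment carry RPKM in their names, yet their values are whole and were read as deposited raw counts. Reads were aligned with TopHat (version not stated) to mm9, per the submitters' processing notes, and no alignment was repeated here. Libraries were stranded and depleted of ribosomal RNA, per the labels' protocols. For RPKM the row with the highest mean per symbol was kept (30901 rows, 25520 symbols), and for counts the rows of a symbol were summed.

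Genes with at least 1 RPKM in 3 of the 18 untreated libraries were tested with limma (3.58.1, trended moderation, 12 residual degrees of freedom) on log2(RPKM + 0.5) minus the library median over tested genes. Vehicle libraries (28114286 to 46496429 counts each) were tested with edgeR (4.0.16), quasi-likelihood, filterByExpr and TMM. All tests were two-sided, p-values were adjusted by Benjamini-Hochberg over all genes tested, and an adjusted p below 0.05 made a call. Versions were R 4.3.3, Python 3.11.15 and matplotlib 3.10.9, and DESeq2 (1.42.0) was an alternative for the counts. The scripts were tested on simulated data with known changes.

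The members and the 53 gene lists were chosen with earlier results of these data known. Named genes were the 15 largest called changes in each direction and the 12 largest called only after centring. Both of these rules required at least 5 RPKM in the higher group and groups not overlapping. Also named, without that requirement, were genes with opposite calls as listed and centred and in each list the 4 members of lowest adjusted p. The 10 highest genes and a set of bone and reference genes were added. Not every gene that met the rules is described, and some are not reported here. File names gave the sequencing runs. Promoter sequences are from RefSeq (GRCm38.p6) and were matched by symbol. Called members without a matched promoter are left out of the motif shares.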

Additional observations from a re-analysis of the deposited data

Results flagged for a closer look

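*Gapdh*, the glycolytic enzyme gene often used as a reference, moved in opposite directions in the 2 experiments. In untreated cells it had 4.14, 4.15 and 4.79 RPKM at day 3 and 1.47, 0.577 and 1.05 RPKM at day 35, a centred log2 change of −0.88 ± 0.22 (adjusted p = 0.00311, limma, n = 3 and 3). In vehicle cells the change was 0.84 ± 0.19 (adjusted p = 0.00373, edgeR, n = 3 and 3), and the libraries of the days did not overlap in either experiment. The difference between the experiments was not tested. *Gapdh* has many processed copies in the mouse genome, so its counting is uncertain, and with the sequencing run in the model its change in untreated cells was −0.74 (adjusted p = 0.0950).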

How the results depend on the processing

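Of the 229 named genes tested, those that kept both direction and call numbered 229 after rescaling to rows other than rRNA, with a pseudocount of 0.1, with a replicate block and with scaling before the pseudocount, and 174 in the values as listed. Calls without centring were 559 higher and 5117 lower. With no filter 11227 genes were called (8251 higher), and with at least 5 RPKM in 3 libraries 2461 (1333 higher, 1128 lower). These filters change both the genes tested and the median on which each library is centred. Members of the lists called were 697, and 456 with that stricter filter. Without 1 library at a time the calls ranged from 4479 to 4786, with 2573 to 2704 higher and 1871 to 2082 lower, and the list members called from 645 to 684. With the run as a covariate 2695 genes were higher and 1981 lower, but only 4069 of the 5073 main calls were kept. The labels do not say whether replicate numbers pair the days, and the main fit has no replicate block. Same-numbered libraries of day 3 and day 35 deviated together at r = 0.388, 0.208 and 0.058, and replicate 1 of both days shares a run. Day 35 replicate 2 correlated best with day 3 replicate 3 (0.245). Over all pairs of untreated days, r was 0.34 to 0.58 for number 1, 0.11 to 0.33 for number 2 and 0.058 to 0.33 for number 3. Same-numbered libraries thus shared some of their deviation, and its source was not tested. A replicate block gave 3515 higher and 2437 lower genes in untreated cells, and 5563 called genes in vehicle cells in place of 6006. DESeq2 called 7195 there, and leaving out 1 vehicle library 4593 to 6048.

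The share of calls with the same direction in vehicle cells, 86.5%, was 85.5% to 87.8% without 1 vehicle library. It was 79.3% to 85.0% for the genes higher only after centring and 63.9% to 68.1% for those lower only as listed. On the given strand alone 25% of the interferon promoters and 8% of the ATF4 promoters held their motif. For the mitosis promoters it was 51.7% for TTTGAA and 51.7% for CCAAT. The shares over all promoters were computed on both strands only.

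Named values that changed sign as listed were *Secisbp2l* (−0.49), *Arfrp1* (−0.53), *Slc4a1ap* (−0.55), *Srpr* (−0.0636), *Nip7* (−0.14), *Psmd7* (−0.19), *Psmb1* (−0.31), *Sc5d* (−0.33), *Hoxa10* (−0.13), *Rnr2* (−0.0165), *5730408K05Rik* (−0.28) and *Malat1* (−0.79). Under quantile normalization *Rnr2* (−0.0300), *5730408K05Rik* (−0.18) and *Malat1* (−0.51) did so. *Malat1*, which was not called, was also negative with upper-quartile centring (−0.13), a pseudocount of 1 (−0.11), no filter (−0.14), the stricter filter (−0.13) and the run as a covariate (−0.0014), and ranged from −0.15 to 0.16 without 1 library. *Tnfsf11* was called only as listed (−1.03). The causes were not tested. Limits: depth is known only roughly, the centred scale assumes a common reference gene, and genes near the pseudocount are drawn upward by it.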
